A study of Mus musculus with 6 samples.

Results

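Fibroblast growth factor (FGF) receptors 1 to 3 and the genes that read their activity were examined in motoneuron regions of the mouse cervical spinal cord. The list holds 10 genes: the receptors Fgfr1, Fgfr2 and Fgfr3, the feedback inhibitors Spry1, Spry2, Spry4 and Dusp6, and the transcription factors Etv1, Etv4 and Etv5. Probe sets were taken where the array annotation gives exactly 1 of these symbols, which found 21 probe sets for 9 genes among 45037 probe sets and 18193 genes in all. Etv1 has none of its own, because its 3 probe sets are annotated together with Gm5454, and it was therefore not measured here. RNA came from right and left GFP-positive regions of HB9::GFP transgenic embryos at E11.5, with 3 right pools and 3 left pools, 1 of each from every one of 3 littermate embryos. The HB9 promoter drives GFP in motoneurons, the regions were cut by laser from shared sections, and the RNA was amplified before hybridisation, so each pool also carries what lay among the marked cells. The study asked whether right and left cervical motoneurons differ, and here the question is put to the FGF pathway.

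FGFs bind receptor tyrosine kinases of the Fgfr family together with heparan sulfate. The receptors act through docking proteins on Ras and on the kinase ERK, and ERK switches on ETS factors of the Pea3 group (Etv1, Etv4 and Etv5) and a set of brakes, among them the Sprouty proteins, which act on the Ras and ERK cascade, and Dusp6, a phosphatase that removes phosphate from ERK. In the mouse spinal cord Fgfr1 is known from medial motor column neurons, whose axons grow towards FGF from the dermomyotome, Fgfr2 and Fgfr3 are known from the progenitors of the ventricular zone, and Etv4 marks motor pools of the limb.

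Pea3 factors bind DNA around a GGAA core, and start sites of FGF response genes of the list are shown where a form of this site occurs. Windows from 250 bases before to 50 after the start were taken from RefSeq (GRCm38.p6). The search used 10 windows for 7 of the genes (Spry1, Spry2, Dusp6, Etv1, Etv5, Fgfr2 and Fgfr3). No window of Fgfr1, Spry4 or Etv4 was searched, and the counts out of 10 do not cover these genes. Both strands were searched for CCGGAA and AGGAAG, which share the core but cannot lie on the same copy of it. CCGGAA was in 1 window and AGGAAG in 4 of the 10, against 14.9% and 35.4% of all 32851 windows of this length. The windows of the 3 response genes with a match and a signal above the limit of the methods follow, with the motif in capitals (CTTCCT is AGGAAG on the other strand). The arrays measure RNA and hold no measure of binding at these sites.

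Dusp6 (chr10:99262981-99263280, plus strand): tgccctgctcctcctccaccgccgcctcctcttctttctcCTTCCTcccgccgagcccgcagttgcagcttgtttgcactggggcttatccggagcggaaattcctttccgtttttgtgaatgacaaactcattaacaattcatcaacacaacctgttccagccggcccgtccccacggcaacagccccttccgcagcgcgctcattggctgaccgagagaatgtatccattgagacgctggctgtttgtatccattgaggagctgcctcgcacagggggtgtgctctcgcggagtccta

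Spry2 (chr14:105896770-105897069, minus strand): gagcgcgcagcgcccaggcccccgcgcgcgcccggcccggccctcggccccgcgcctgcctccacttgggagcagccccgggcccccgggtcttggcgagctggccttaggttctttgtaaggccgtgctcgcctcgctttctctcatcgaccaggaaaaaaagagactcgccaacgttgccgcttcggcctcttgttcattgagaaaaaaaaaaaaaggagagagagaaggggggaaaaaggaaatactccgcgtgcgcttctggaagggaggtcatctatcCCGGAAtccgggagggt

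Etv5, second start (chr16:22438319-22438618, minus strand): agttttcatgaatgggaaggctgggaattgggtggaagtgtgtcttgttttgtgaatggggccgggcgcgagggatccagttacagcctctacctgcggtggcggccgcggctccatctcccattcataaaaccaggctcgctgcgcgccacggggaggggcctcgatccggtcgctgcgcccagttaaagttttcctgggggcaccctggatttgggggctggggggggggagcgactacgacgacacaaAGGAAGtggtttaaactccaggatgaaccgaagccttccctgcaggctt

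Values are MAS5 signals on a linear scale, scaled by the authors to the same trimmed mean on every array. The study's methods set aside transcripts whose signal stayed under 200 in every pool, and 10 of the 21 probe sets, for 7 genes, reached this limit and entered the test. The other 11 read between 2.04 and 194 and include all 4 of Spry4 and both of Etv4. The difference between sides was taken as log2(R/L) within each embryo and fitted with limma, with side and embryo as terms and p-values adjusted over all 21853 tested probe sets. Under the fold rule of the methods, the ratio must point one way in the 3 embryos, and both its average and its value in 2 or more embryos must pass 1.5-fold (0.58 in log2). For 3 pairs the smallest p of an exact two-sided sign-flip test is 0.25.

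The motoneuron identity of the pools was read from 10 marker genes, all of which reached the limit. Mnx1 (HB9) itself had signals of 5139, 4029 and 3520 in the right pools of embryos 1, 2 and 3, against 5219, 4160 and 3844 in the left pools. The summed signal of the 10 markers ran from 46648 to 72315 in right pools and from 50298 to 63739 in left pools, and was highest in embryo 1 on both sides. Slit2 and Prph had the highest mean signals of the list and weigh most in these sums. The right pool of embryo 1 stood apart: the summed signal of 12 mesenchyme and sclerotome markers was 18021 there, against 2119 in its left pool and 1249 to 2904 in the other pools, and all 12 were higher on the right in that embryo. Skeletal muscle markers summed to 3807 in the same right pool, against 462 in its left pool and 259 to 503 elsewhere. Fewer cells of a type and less RNA per cell cannot be told apart in such pools.

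None of the FGF receptors or response genes was called different between the right and left sides. With limma, 0 of the 10 tested probe sets had an adjusted p under 0.05 (0.974 to 0.999), where 0% of all tested probe sets did in either direction. At an unadjusted p under 0.05 the count was also 0 of 10, with 1.92% of all tested probe sets higher on the right and 1.48% higher on the left by this measure. The fold rule was met by 0 of 10, against a background of 2.4% higher on the right and 1.55% higher on the left. The median log2(R/L) of the 10 was 0.14, between -0.28 and 0.48, and that of all tested probe sets was 0.02. In 4 of the 10 (2 of Fgfr1 and those of Dusp6 and Etv5) the right pool was the higher in 3 of 3 embryos, in 0 the left pool was, and the other 6 were mixed, against 12.7% of all tested probe sets higher on the right and 10.8% higher on the left in 3 of 3 embryos. Of these 4, 2 read the same gene, and 1 of them passed the limit through right pools alone. The right pool was higher in 7, 7 and 5 of the 10 in embryos 1, 2 and 3, against 51.8%, 52.4% and 49.8% of all tested probe sets.

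**Figure D1:**
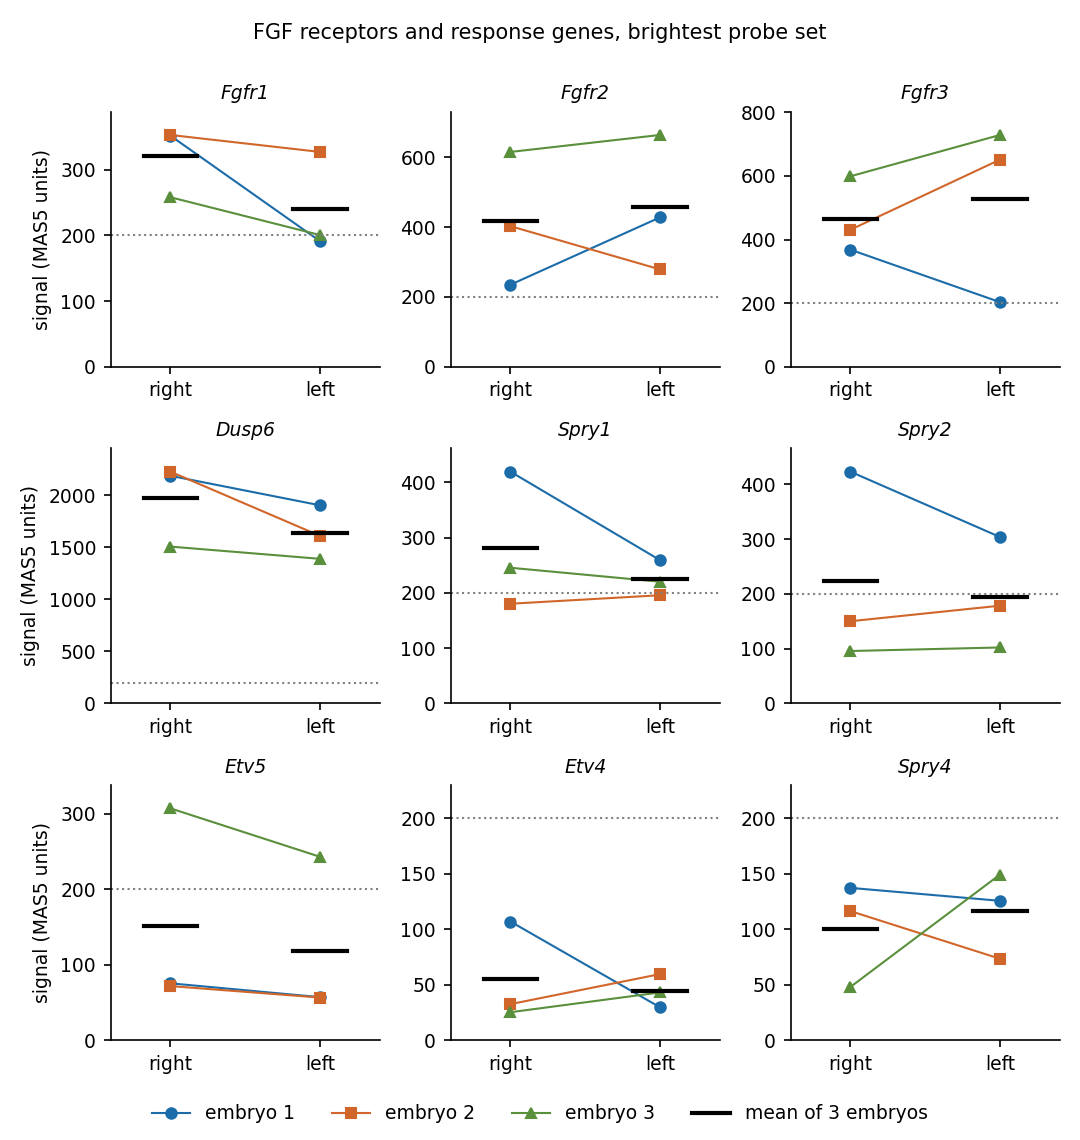
Signal (MAS5 units, linear, each panel with its own axis from 0) of the brightest probe set of 9 genes in the right and left pool of each of 3 embryos, with lines joining the pools of an embryo, black bars for the mean of each side and a dotted line at the limit of 200. Dusp6 lies above the limit in every pool, Etv5 only in embryo 3, and Etv4 and Spry4 in no pool.

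Fgfr1, the receptor linked to the medial motor column, was read by 3 probe sets that did not share a direction. The brightest had signals of 352, 353 and 258 in the right pools of embryos 1, 2 and 3, against 191, 327 and 201 in the left pools. It was higher on the right in 3 of 3 embryos, although the ranges of the sides overlapped, and the mean log2(R/L) was 0.45 ± 0.39 (SD, n = 3 embryos; 95% interval -0.25 to 1.15). It was 0.24 without embryo 1, and 0.22 as the mean over the 3 probe sets. The next had 207, 292 and 260 in the right pools, against 372, 273 and 276 in the left pools, a mean of -0.28 ± 0.50 that came mainly from embryo 1 (-0.85). In the third, signals were 215, 241 and 172 in right pools, against 168, 118 and 166 in left pools. This was the only tested probe set of the group whose sides did not overlap, 1 of 10, against 2.98% of all tested probe sets with the right pools above the left and 2.45% with the reverse. It passed the signal limit through the right pools alone, so it could be tested only because it was high there, and its mean of 0.48 ± 0.50 did not pass the test (95% interval -0.43 to 1.38).

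Fgfr2, a receptor of neural progenitors and many epithelia, showed no common direction. The brightest of its 3 probe sets had signals of 235, 403 and 616 in right pools, against 428, 279 and 664 in left pools. The higher side was the left in embryos 1 and 3 and the right in embryo 2, and the mean log2(R/L) of -0.15 ± 0.70 (95% interval -0.84 to 0.55) turned to 0.21 without embryo 1. The second tested probe set gave the same order within each embryo, with 103, 86.6 and 250 in right pools, against 129, 74.7 and 293 in left pools. The remaining one stayed under the limit, at 27.4 to 91.3.

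Fgfr3, which marks the ventricular zone, also split by embryo. Its brighter probe set had signals of 368, 431 and 599 in right pools, against 203, 651 and 729 in left pools. The right pool was higher in embryo 1 (log2 0.86) and lower in embryos 2 (-0.60) and 3 (-0.28), so that the mean was -0.01 ± 0.77 (95% interval -0.71 to 0.70), with 0.29 without embryo 2 and 0.13 without embryo 3. The dimmer probe set, under the limit, read 96.8, 144 and 147 in right pools, against 29.2, 138 and 192 in left pools, and was likewise higher on the right in embryo 1.

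Dusp6, the ERK phosphatase, was above the limit in every pool. It had signals of 2186, 2226 and 1506 in right pools, against 1903, 1609 and 1388 in left pools. The right pool was higher in 3 of 3 embryos, by log2 0.20, 0.47 and 0.12, while the ranges of the sides overlapped. The mean was 0.26 ± 0.18, a 1.20-fold ratio (95% interval 0.93 to 1.55) with a log2 mean of 0.16 without embryo 2, and its unadjusted p of 0.142 was the lowest of the group (limma, adjusted p = 0.974). The motif of its promoter window, shown above, lies 210 bases before the start.

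Of the Sprouty genes, Spry1 and 1 probe set of Spry2 reached the limit. Spry1 had signals of 419, 180 and 246 in right pools, against 259, 196 and 220 in left pools, with a mean log2(R/L) of 0.24 ± 0.41 (95% interval -0.50 to 0.98), and 0.019 without embryo 1. The brighter Spry2 probe set had 423, 150 and 95.6 in right pools, against 304, 178 and 102 in left pools, a mean of 0.04 ± 0.38 that changed sign, to -0.042, when arrays were scaled to a common median. In both genes the right pool of embryo 1 was the highest of the 6. That pool also held the most mesenchyme and muscle signal and the highest motoneuron sum (72315). Slit2 weighs most in this sum, with 29788 there, against 20999 in the left pool of embryo 1. Of the 10 motoneuron markers, 5 were higher on the right in embryo 1, and Mnx1 and Isl1 were among those that were lower. The part of mesenchyme, muscle or motoneurons in the signal of both genes was not tested. The dimmer Spry2 probe set had 164, 194 and 47.1 in right pools, against 98.0, 56.1 and 32.3 in left pools. It was higher on the right in 3 of 3 embryos (log2 0.74, 1.79 and 0.54). Its highest signal lay under the limit and its mean was 98.5, and it was therefore not tested. All 4 Spry4 probe sets stayed under the limit: the brightest had 137, 116 and 47.9 in right pools, against 126, 73.4 and 149 in left pools, and the other 3 read between 2.04 and 29.1.

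Of the Pea3 factors, Etv5 was above the limit in 1 embryo and Etv4 in none. The brightest Etv5 probe set had 75.3, 71.6 and 307 in right pools, against 56.9, 56.4 and 243 in left pools. The log2(R/L) was nearly the same in the 3 embryos, at 0.40, 0.34 and 0.34, a mean of 0.36 ± 0.04. The interval of limma was wide (-0.90 to 1.62; adjusted p = 0.976), because the fit moderates the variance of each probe set towards that of others of its signal. Another Etv5 probe set read 68.3, 10.8 and 100 in right pools, against 6.63, 4.71 and 96.9 in left pools, and the last read 59.2, 13.5 and 28.7, against 16.8, 17.6 and 21.8. Etv4, which marks limb pools, had 107, 32.4 and 25.1 in right pools, against 29.6, 59.5 and 43.0 in left pools in its brighter probe set. In the dimmer one it had 86.7, 8.68 and 13.3, against 18.7, 8.61 and 16.2. The right pool of embryo 1 was the highest of the 6 in both Etv4 probe sets.

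**Figure D2:**
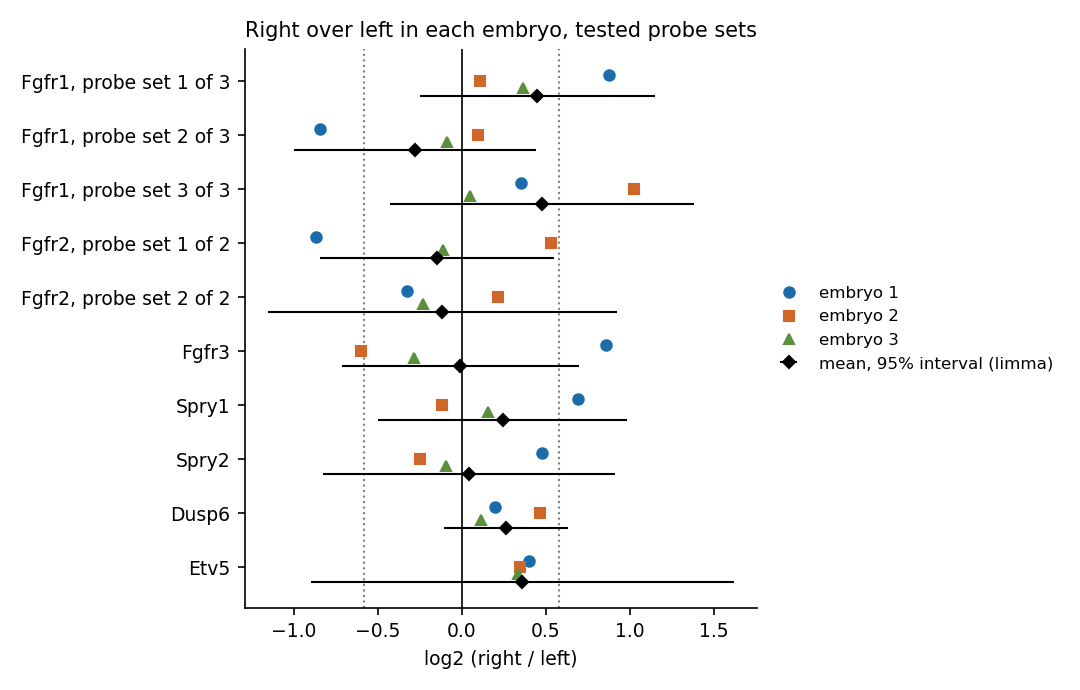
Log2(R/L) of the 10 tested probe sets in each of 3 embryos (coloured symbols), with the mean and its 95% interval from limma (black); dotted lines mark 0.58, the fold limit of the methods. Every interval includes 0, and the single ratios of embryo 1 reach from -0.86 (Fgfr2) to 0.88 (Fgfr1).

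The levels also varied between the embryos. The 2 pools of an embryo share an animal, so this comparison asks only whether embryos differ beyond the residual of the paired fit. The range of the 3 embryo means had a median of 1.88-fold over the 10 tested probe sets, from 1.05-fold (the second Fgfr1 probe set) to 4.30-fold (Etv5), and of 1.41-fold over all tested probe sets. In 9 of the 10 the mean signal lay under the median of all tested probe sets (508). By the F test of limma over the embryo terms, 0 of 10 had an adjusted p under 0.05 (lowest 0.197, Spry2), where 0.27% of all tested probe sets did. At an unadjusted p under 0.05 there were 5 of 10, namely both tested probe sets of Fgfr2 and those of Fgfr3, Spry2 and Etv5, against 15.3% of all tested probe sets. Etv5 and the dimmer tested Fgfr2 probe set passed the signal limit through embryo 3 alone, and Spry2 through embryo 1 alone. Each could be tested only because that embryo was high, which favours a wide range between embryos, so this count is not read as a result. Without embryo 2, Fgfr3 (adjusted p = 0.0123; 0.0123 to 0.668 over the settings tried) and Spry2 (adjusted p = 0.0291; 0.0291 to 0.638) passed the test between embryos 1 and 3, where 6.2% of all probe sets in that fit did.

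Fgfr2, Fgfr3 and Etv5 were highest in embryo 3, and Spry2 in embryo 1. The means of the 2 pools in embryos 1, 2 and 3 were 332, 341 and 640 for Fgfr2, 286, 541 and 664 for Fgfr3, 66.1, 64.0 and 275 for Etv5 and 364, 164 and 98.9 for Spry2. The 12 neural progenitor markers summed to 11214, 15926 and 15155 in the right pools of embryos 1, 2 and 3, against 9118, 15856 and 16267 in the left pools, so that embryo 1 was the lowest on both sides. Vim, Fabp7 and Nes had the highest mean signals of this list and weigh most in the sums. By the mean of both pools, Fabp7 and Nes were lowest in embryo 1, and Vim was lowest in embryo 3 (4668, against 4975 in embryo 1). By the mean of the 2 pools, 1 of the 12 was highest in embryo 1, 6 in embryo 2 and 5 in embryo 3, and the list therefore had no common order of embryos 2 and 3. Of these markers 8 reached the signal limit, and 0 of the 8 passed the adjusted test between embryos. The motor progenitor factor Olig2 read at most 76.4. The direction of Fgfr3 (right higher in embryo 1, left higher in embryos 2 and 3) was seen in 3 of the 12. Xist, the RNA of the inactive X chromosome, read 12058 in the right and 13416 in the left pool of embryo 2, while the 4 pools of embryos 1 and 3 had 5.57 or less. The 10 motoneuron markers summed to 72315, 51237 and 46648 in the right pools of embryos 1, 2 and 3, against 63739, 55474 and 50298 in the left pools. By the mean of the 2 pools, 9 of the 10 were highest in embryo 1. Between embryos 1 of the 10, Prph, passed the test (limma F, adjusted p = 0.0300), where 0.27% of all tested probe sets did. The part of the motoneuron signal, of the progenitor signal or of sex in the embryo differences was not tested.

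**Figure D3:**
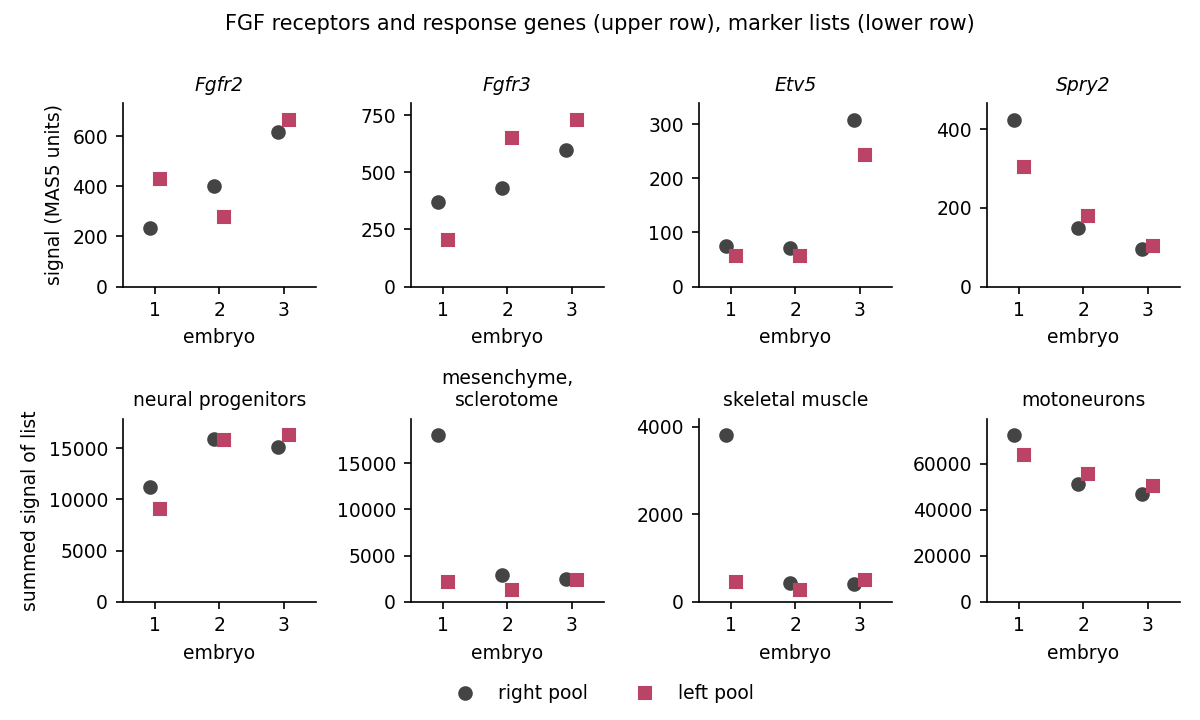
Signal (MAS5 units, linear, each panel with its own axis from 0) of the brightest probe set of Fgfr2, Fgfr3, Etv5 and Spry2 (upper row), and summed signal of 4 marker lists (lower row), in the right and left pool of each embryo. On each side Fgfr2, Fgfr3 and Etv5 are highest in embryo 3 and Spry2 in embryo 1, although the right pool of embryo 3 (599) lies under the left pool of embryo 2 (651) for Fgfr3, and the mesenchyme and muscle sums are highest in the right pool of embryo 1.

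The rest of the pathway was read from 76 further genes, of which 70 had a probe set of their own and 44 reached the signal limit in their brightest one. With limma 0 of the 44 passed an adjusted p of 0.05 in either direction, and 2 had an unadjusted p under 0.05, both higher on the right, against 1.92% of all tested probe sets higher on the right and 1.48% higher on the left. The fold rule was met by 1, Nf1, also higher on the right, against 2.4% of all tested probe sets, so neither count is read as a result about the pathway. The median log2(R/L) of the 44 was 0.04, and 26 had a mean above 0.

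The 2 genes, Nf1 and Spred1, come from a list of 10 tested feedback inhibitors whose mean log2(R/L) ran from -0.81 to 0.75 with a median of 0.04. Nf1, the Ras GTPase activator neurofibromin, had signals of 450, 610 and 978 in right pools, against 266, 341 and 784 in left pools. It was higher on the right in 3 of 3 embryos although the ranges overlapped, with a mean log2(R/L) of 0.64 ± 0.28 (95% interval 0.11 to 1.16; unadjusted p = 0.0225, adjusted p = 0.974). Nf1 no longer met the fold rule without embryo 1, without embryo 2, with 50 added to each signal, with median scaling or when every embryo had to pass the fold. Spred1, a relative of the Sprouty proteins that recruits neurofibromin to the membrane, had 929, 1058 and 555 in right pools, against 373, 529 and 577 in left pools. The right pool was higher in embryos 1 and 2 (log2 1.32 and 1.00) and level with the left in embryo 3 (-0.05), with a mean of 0.75 ± 0.72 (a 1.69-fold ratio, 95% interval 1.08 to 2.64; unadjusted p = 0.0273, adjusted p = 0.974). The same order of embryos was seen in the mesenchyme markers, whose median log2(R/L) was 3.11, 1.12 and 0.08 in embryos 1, 2 and 3. It was not particular to them. Muscle markers had 2.34, 0.33 and -0.09, erythroid markers 1.53, -0.10 and -0.23, and markers of neural crest, glia and sensory ganglia 0.51, 0.30 and -0.01. The last of these lists had 4 measured genes, of which 2 were higher on the right in each embryo. The motoneuron, progenitor and endothelial lists had other orders. The part of any of these cells in the Spred1 signal was not tested.

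Among the 18 secreted ligands, 16 stayed under the signal limit in every pool, and Fgf9 and Fgf18 were above it. Fgf9, a ligand made by neurons, had 831, 291 and 301 in right pools, against 443, 223 and 238 in left pools. It was higher on the right in 3 of 3 embryos with overlapping ranges, a mean log2(R/L) of 0.54 ± 0.32 (95% interval -0.07 to 1.16). Fgf18 had 353, 129 and 155 in right pools, against 166, 272 and 143 in left pools, with opposite directions in embryos 1 and 2.

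The 4 intracellular FGF homologous factors, which bind sodium channels and microtubules and not the receptors, were all above the limit, with mean log2(R/L) from -0.48 (Fgf14) to 0.03 (Fgf11) and -0.29 for Fgf12. Of the other receptors and cofactors, 6 of 9 were tested and 4 had a mean above 0, led by the FGF carrier Fgfbp3 (0.43 ± 0.47), the decoy-like receptor Fgfrl1 (0.33 ± 0.34) and Fgfr4 (0.27 ± 0.29). Fgfr4 passed the signal limit through right pools alone, which favours a mean above 0. Fgfbp3 had 1618, 3250 and 3803 in right pools, against 855, 2491 and 3830 in left pools, so that its embryos lay further apart than its sides.

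In the docking proteins and the Ras and ERK cascade, 13 of 14 measured genes were tested, with a median log2(R/L) of 0.01. The adaptor Shc1 averaged 0.71 ± 1.00, the kinase Araf -0.43 ± 0.40 and the docking protein Gab1 0.29 ± 0.39, and 0 of the 13 met the fold rule. Shc1 passed the signal limit only through the right pool of embryo 1 (251), and 4 of the 44 tested pathway genes passed it through right pools alone. The right pools of Araf lay below all left pools, as did those of the ERK phosphatase Dusp7, named after its values were seen, which makes 2 of the 44, against 2.45% of all tested probe sets. Of the other ETS factors and ERK response genes, 9 of 13 were tested, with a median of 0.10. The immediate early gene Egr1 averaged 0.62 ± 0.55, Ier2 0.47 and Phlda1 0.41 ± 0.60, and 0 of the 9 met the fold rule. Egr1 had 574, 257 and 182 in right pools, against 454, 108 and 152 in left pools, and its signal was higher on the right in 3 of 3 embryos.

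**Figure D4:**
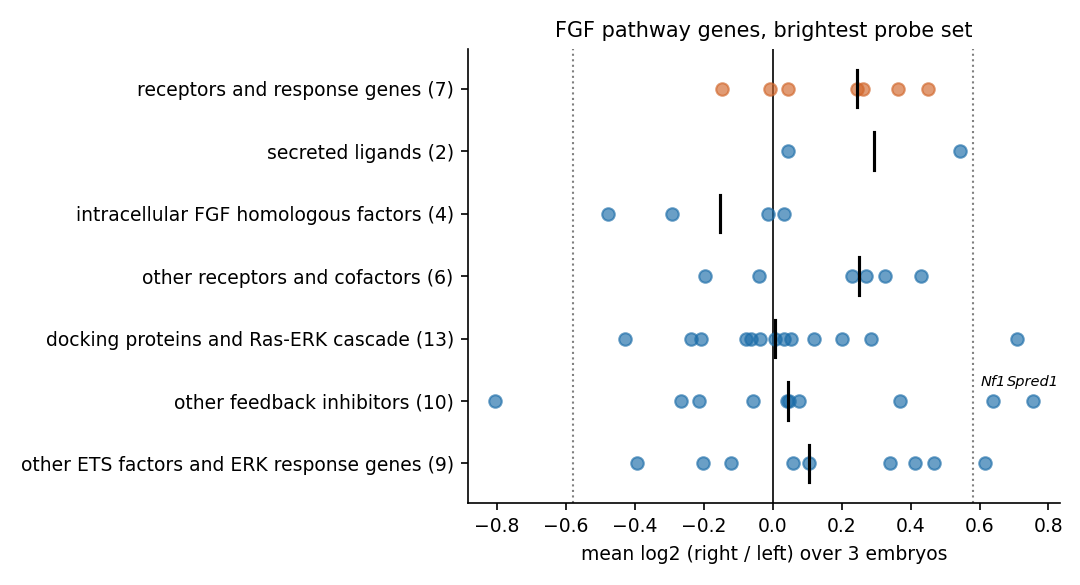
Mean log2(R/L) over 3 embryos of the brightest tested probe set of each gene, for 7 of the FGF receptors and response genes (orange) and 6 further lists of the pathway (blue, number of genes in parentheses), with a black bar at the median of each list and dotted lines at 0.58. The medians lie between -0.15 and 0.29, and Nf1 and Spred1 are the genes with an unadjusted p under 0.05.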

How the data were processed

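Right and left motoneuron pools of 3 HB9::GFP embryos were hybridised to 6 Affymetrix GeneChip mouse expression arrays. The deposited signal intensities were computed by the authors with MAS5 in Affymetrix Expression Console (version not given in the sources used here), from RNA with an integrity number above the authors' limit and after amplification, which can distort low signals. Each array has a mean of 500 after the lowest and highest 2% of probe sets are left out. Present and absent calls are not in the table used here, and no filter on them could be made.

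Of 45101 probe sets, 64 controls were left out. Signals were taken to log2 with no constant added and tested with limma 3.58.1 in R 4.3.3 (terms for side and embryo, variance trend, Benjamini-Hochberg adjustment over 21853 probe sets with a highest signal of 200 or more). Summaries used Python 3.11.15. The method was tested on simulated data, with added changes all larger than the mean log2(R/L) of any tested FGF receptor or response gene. Changes as small as theirs were not simulated. The labels tie the pools of an embryo, and the design states pairing; with side means subtracted, right and left deviations correlated at 0.241 (embryo 1), 0.215 (embryo 2) and 0.495 (embryo 3). The number of arrays limits the precision, and the embryos come from 1 litter.

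The genes and lists were chosen with earlier results of these data known. All probe sets of the 10 genes are given; of each further list, genes that met the fold rule or had an unadjusted p under 0.05 are named, and otherwise up to 3 with the largest mean ratio. Results were recomputed with each embryo left out, without the embryo term, without the variance trend, after median scaling or quantile normalization, with 50 added to signals, with other signal limits (none, highest signal 500, mean signal 200), with the fold asked of every embryo, and with the mean of all tested probe sets of a gene.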

Additional observations from a re-analysis of the deposited data

How the results depend on the processing

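Over the alternatives, 0 of the probe sets of the FGF receptors and response genes were called between the sides by limma, with 0 at an unadjusted p under 0.05 in each limma fit, including the fit without the replicate block (side alone in the model), which gave 0 as the paired fit did. The fold rule found 0 under the other settings and 2 with no signal limit, the dimmer Spry2 probe set (mean log2(R/L) 1.02) and an Etv5 probe set (1.54). Between embryos the count was 0 except when a replicate was left out, where it ran from 0 to 2. For the further pathway genes the fold rule found 0 with 50 added to each signal, 0 when every embryo had to pass the fold, 2 with no signal limit (Nf1 and Fgf15, whose mean was -1.12) and 0 to 4 with an embryo left out; with median scaling it found Spred1 in place of Nf1. Of 77 alternative values of single genes 73 kept their direction and stayed uncalled. The other 4 changed sign. With an embryo left out, Fgfr2 ran from -0.49 to 0.21 (without embryo 1) and Fgfr3 from -0.44 to 0.29 (without embryo 2), with 0.13 without embryo 3. With median scaling, which moves the median of all probe sets to -0.07, Spry2 was -0.042. The cause was not tested. Signals near 200 and below lie close to background, and their ratios are the least certain.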
